A study of Mus musculus with 2 samples.

Results

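The 9 genes described here encode lectin-like receptors of natural killer (NK) cells and T cells: Klrd1 (CD94), Klrc1 (NKG2A), Klrc2 (NKG2C), Klrk1 (NKG2D), Klre1, Klrb1c (NK1.1), Klrb1b, Klrb1f and Klrg1. They were chosen by name as a receptor family and make up 9 of the 31017 gene symbols in the series. All 9 were present, and each had UMIs (unique molecular identifiers, one per captured RNA molecule). The study profiled whole spleen cells of mice aged 6 to 8 weeks by droplet single-cell RNA sequencing of transcript 3′ ends. It has 2 samples, 1 from a mouse titled WAS, the Wiskott-Aldrich syndrome model in which the WAS gene is knocked out, and 1 from a mouse titled WT, although the labels of both name the syndrome as the mouse model. The deposited counts are 1 pooled table without a map from cells to samples, so the cells were treated as 1 pooled sample and the genotypes were not compared.

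Receptors of this family sit at the cell surface and read ligands on neighbouring cells. CD94 pairs with NKG2A to form an inhibitory receptor and with NKG2C to form an activating one, both for the class Ib molecule Qa-1. NKG2D is an activating receptor for stress-induced ligands that signals through the adaptors DAP10 and DAP12. Some NKR-P1 proteins bind Clec2 ligands on other cells. KLRG1 is an inhibitory receptor for cadherins that marks mature NK cells and differentiated T cells.

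Of 7524 barcodes, 6588 had at least 200 genes and at most 10% mitochondrial UMIs, with a median of 5339 UMIs. Cells were gated on raw UMIs of lineage genes, none of them a member. NK cells had no Cd3d, Cd3e or Cd3g UMI, at least 1 of Nkg7 and at least 1 of Ncr1 or Eomes. The gates held 265 NK cells, 1043 T cells, 2822 B cells and 349 macrophages, among others, and 579 barcodes that met gates of more than 1 lineage were set aside. The T cell marker genes are 0 in NK cells by the gate, and the marker genes of any other lineage summed to at most 80.6 UMIs per 1000000 there, against 3705 for Nkg7. The gates also cap those markers in each NK cell and require Nkg7, so these values are no independent check of purity. Levels are given as UMIs per 1000000 UMIs of the group (CPM) with exact Poisson 95% intervals, and shares of cells with exact Clopper-Pearson 95% intervals. These cover counting error only, because cells of a pool are not replicates, and no p-value was computed. A 3′ library counts 1 fragment end per molecule, so CPM was not divided by gene length.

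The 9 genes lie on chromosome 6 (GRCm38, GENCODE vM21 annotation) and all are protein coding. Klrg1 stands apart at 122270596 to 122282882 on the minus strand. The other 8 fall within the NK gene complex, from Klrb1c (128778485 to 128789215, minus strand) and Klrb1b (128813706 to 128826331, minus) through Klrb1f (129045901 to 129057464, plus) to a cluster of Klre1 (129577905 to 129585827, plus), Klrd1 (129591782 to 129598775, plus), Klrk1 (129610323 to 129623864, minus), Klrc2 (129647496 to 129660689, minus) and Klrc1 (129666015 to 129678973, minus). Because the library reads 3′ ends, the last 500 bases of each coding transcript were compared with all other genes. Of the 50-base stretches there, 43.5% of those of Klrc1 and 20.5% of those of Klrc2 also occur in a transcript of each other or of Klrc3, and 17.8% of those of Klrb1c and 22.4% of those of Klrb1b occur in another gene of the Klrb1 family or in the overlapping locus Gm44511, which had 0 UMIs. The split of UMIs between Klrc1 and Klrc2, and between Klrb1c and Klrb1b, is therefore uncertain. Klrd1, Klrk1, Klre1, Klrb1f and Klrg1 shared no such stretch.

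**Figure D1:**
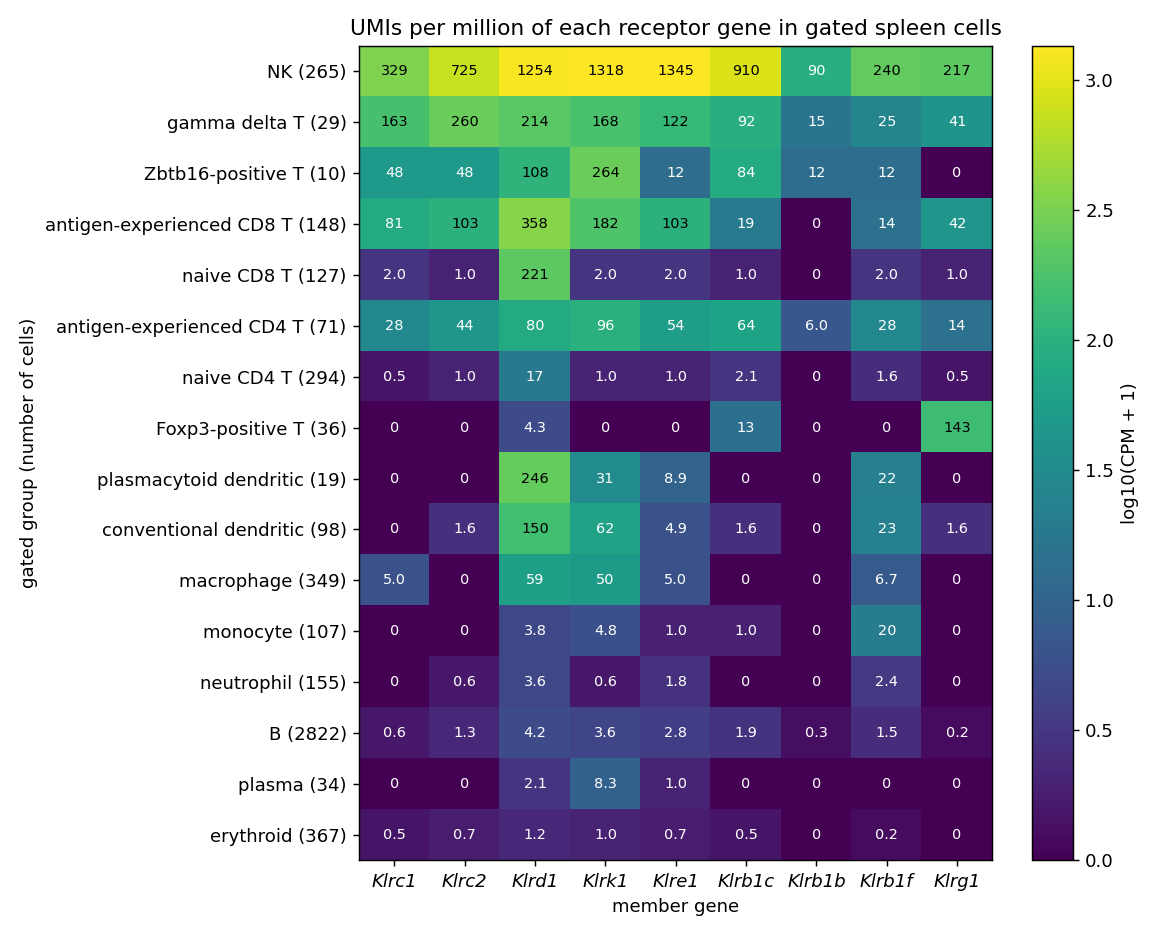
Level of each member (columns, CPM, printed in the cell; colour on a log10(CPM + 1) scale) in gated groups (rows, with their number of cells). NK cells have the highest level of all 9 genes, Klrd1 is the one gene above 2.01 CPM in naive CD8 T cells, and Klrg1 is the leading gene of Foxp3-positive T cells.

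NK cells carried most of the receptor RNA. All 265 had a UMI of at least 1 member, and they held 8455 of the 14963 member UMIs of all kept barcodes (56.5%) although they were 4.02% of them. Within NK cells the members fell into groups of very different level. Klre1 (1345 CPM, 1283 to 1409), Klrk1 (1318 CPM, 1257 to 1382) and Klrd1 (1254 CPM, 1194 to 1316) were the most abundant, and their intervals overlapped. Klrb1c (910 CPM, 859 to 963) and Klrc2 (725 CPM, 679 to 772) came next. Klrc1 (329 CPM, 299 to 362) was followed by Klrb1f (240 CPM, 214 to 267) and Klrg1 (217 CPM, 193 to 244), which did not differ beyond counting error, and Klrb1b was lowest (90.5 CPM, 75.0 to 108).

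The CD94 partners differed in how they were spread over cells. Klrd1 was detected in 258 of 265 NK cells (97.4%, 94.6 to 98.9) and Klrc2 in 252 (95.1%, 91.8 to 97.4), whereas Klrc1 was detected in 139 (52.5%, 46.3 to 58.6). Klrc1-positive cells had a median of 3 UMIs, the same as those of Klrc2, and 49 cells had 4 or more while 126 had none. By contrast 78 of the 156 Klrb1f-positive cells had a single UMI. Klrk1 was missing from 1 cell only, Klre1 from 7 and Klrb1c from 11. Klrg1 was detected in 131 cells (49.4%, 43.3 to 55.6) and Klrb1b in 76 (28.7%, 23.3 to 34.5). For comparison, in B cells, which should lack these genes and have a median of 5122 UMIs against 4417 in NK cells, between 0.142% (Klrg1) and 1.95% (Klrd1) of cells had a UMI. With each cell thinned to 1000 UMIs, Klrc1 was detected in 61 NK cells, Klrc2 in 135 (50.9%) and Klrd1 in 188 (70.9%), and the share of B cells was 0.355% for Klrd1.

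NK cells typically had several of these receptors at once. The median cell had UMIs of 7 of the 9 members, 259 of 265 had at least 5, and 16 had all 9; cells with all 9 had a median of 4966 UMIs in total, and cells with 5 had 4052.5. Cells with and without Klrc1 had other receptors at similar shares: Klrc2 was detected in 95.7% (90.8 to 98.4) of the former and 94.4% (88.9 to 97.7) of the latter, Klrd1 in 97.8% and 96.8%, and Klrg1 in 54.0% (45.3 to 62.4) and 44.4% (35.6 to 53.6). Most Klrc1-positive cells thus also had UMIs of Klrc2 and Klrd1, though Klrc1 and Klrc2 share 3′ sequence.

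**Figure D2:**
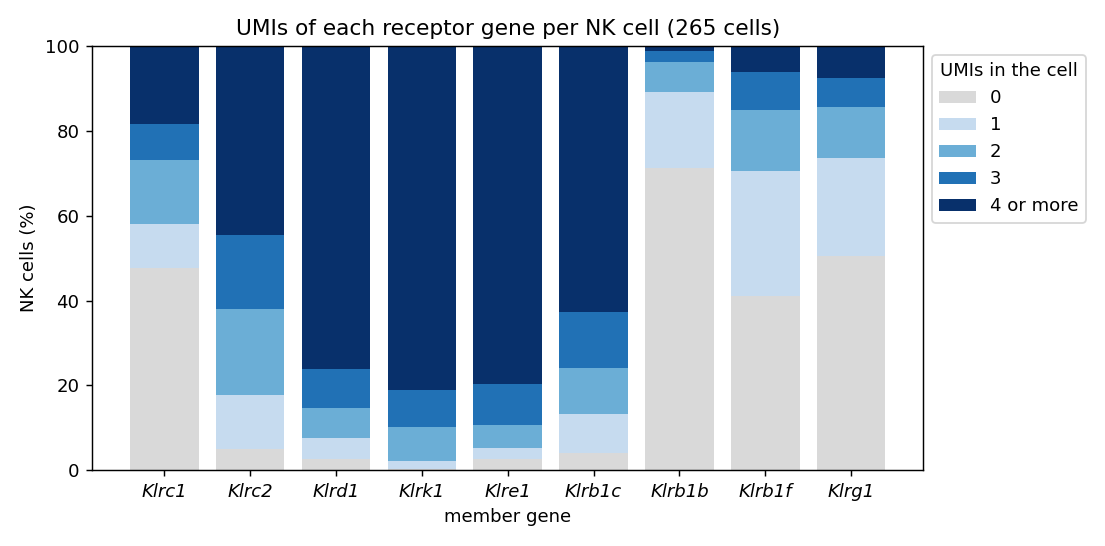
Share of the 265 NK cells (y axis, percent) with 0, 1, 2, 3 or 4 or more UMIs of each member (x axis). Klrc1 combines 126 cells without a UMI with 49 cells of 4 or more, while Klrk1 is at 0 in 1 cell.

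All 9 members were at least 2-fold higher in NK cells than in T cells, where the same held for 13.3% of the 11091 genes with at least 10 UMIs over both groups. The median log2 ratio was 4.28 over the members and 0.19 over all those genes. The ratio was smallest for Klrd1 (8.51-fold, 7.89 to 9.19), Klrc1 (10.9-fold, 9.25 to 12.8) and Klrg1 (11.7-fold, 9.51 to 14.4), and largest for Klrb1c (46.6-fold, 39.2 to 55.6) and Klrb1b (57.1-fold, 31.5 to 114). Part of the T cell level came from few cells: the 22 T cells with a UMI of Ncr1, the NK receptor NKp46, held 669 of the 2901 member UMIs of T cells. Without those 22 cells all 9 remained at least 2-fold higher in NK cells, against 13.5% of all genes, and the ratio became 116-fold (88.9 to 153) for Klrb1c, 222-fold (74.3 to 1094) for Klrb1b, which then had 3 UMIs in T cells, and 50.1-fold (43.2 to 58.3) for Klre1. Whether these barcodes are T cells that express Ncr1 or a T and an NK cell in one droplet was not tested. More widely, 159 barcodes met the T gate and had the NK gate genes, and they held 1729 member UMIs. The share of doublets among them was not tested either. Against antigen-experienced CD8 T cells alone, all 9 were again at least 2-fold higher in NK cells, against 14% of genes, with ratios from 3.50 (Klrd1, 3.16 to 3.87) to 49.1 (Klrb1c, 33.4 to 75.5); for Klrb1b, at 0 in those T cells, it was at least 42.3-fold higher.

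NK cells were then split by Cd27 and Itgam (CD11b), the surface proteins that order NK maturation. Klrg1 was the one member at least 2-fold apart between the 149 Cd27-negative Itgam-positive and the 24 Cd27-positive Itgam-negative cells. It was at 270 CPM (233 to 312) against 125 CPM (74.0 to 197), a ratio of 2.17 (1.33 to 3.73). Over all genes, 11.5% were at least 2-fold higher and 6.16% at least 2-fold lower. The count of 1 of 9 members is therefore not above the share over all genes. A Klrg1 UMI was found in 82 of 149 and 7 of 24 cells. Klrc2 (1.33-fold, 1.05 to 1.69), Klrb1c (1.32-fold, 1.07 to 1.63) and Klre1 (1.28-fold, 1.08 to 1.52) were slightly higher in the Itgam-positive cells, and Klrb1f was lower (0.705-fold, 0.508 to 0.994). The intervals of Klrc1, Klrd1, Klrk1 and Klrb1b included 1. The Klrc2 to Klrc1 ratio of UMIs was 1.65 (1.15 to 2.38) in the Cd27-positive and 2.50 (2.14 to 2.95) in the Itgam-positive cells, which overlap. The Klrg1 ratio fell below 2 when cells with 1 Cd3 UMI were admitted to the NK gate (log2 ratio 0.81) and when cells were thinned to 1000 UMIs (0.99). The thinned cells instead had Klrb1c (1.12) and Klrb1b (1.07) at least 2-fold higher and Klrb1f lower (-1.10), and Klrb1b was also past 2-fold (1.09) with a mitochondrial maximum of 5%. In the same cells, 5 of the 12 listed maturation genes were at least 2-fold higher in the Itgam-positive cells and 2 lower, the gate genes Itgam and Cd27 among them; Cx3cr1, a chemokine receptor of mature NK cells, was 24.3-fold higher (4.29 to 970) and Prf1, which encodes perforin, 2.16-fold. Tcf7, a transcription factor of early lymphocytes, was lower (0.193-fold, 0.112 to 0.331). The interleukin 7 receptor gene Il7r, on the list for type 1 innate lymphoid cells, was lower too (0.0387-fold, 0.00722 to 0.135).

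**Figure D3:**
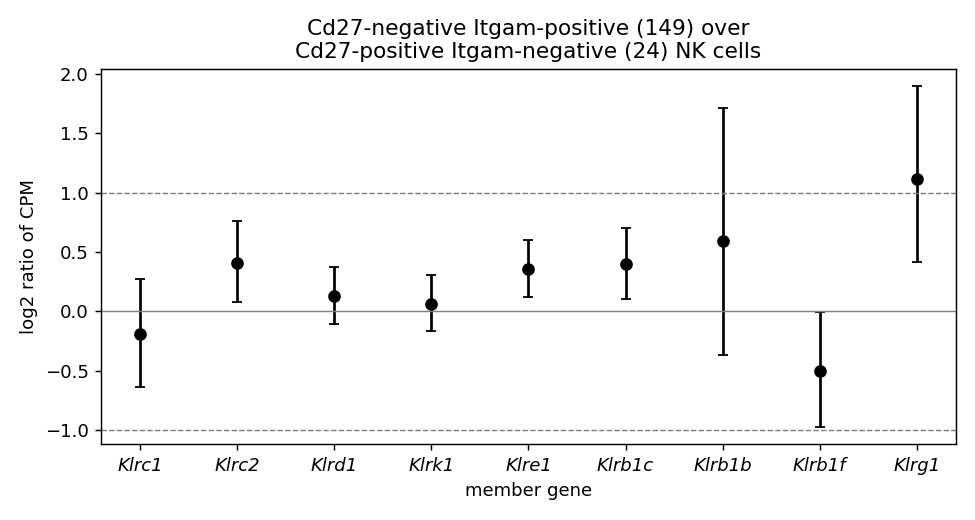
Ratio of each member's CPM between 149 Cd27-negative Itgam-positive and 24 Cd27-positive Itgam-negative NK cells (y axis, log2; bars are exact 95% counting intervals; dashed lines mark a 2-fold difference). Klrg1 lies above the upper line at 1.12, and the interval of Klrb1f lies just below 0.

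In naive CD8 T cells Klrd1 was detected almost without its partners. It reached 221 CPM (193 to 252), with a UMI in 80 of 127 cells (63.0%, 54.0 to 71.4) and at most 8 in a cell, while no other member exceeded 2.01 CPM. Klrc1 and Klrk1 had 2 UMIs each, Klrc2 and Klrg1 1 each and Klrb1b none. Naive CD4 T cells had 17.2 CPM of Klrd1 (11.8 to 24.1), in 29 of 294 cells, so that the naive CD8 level was 12.9-fold higher (8.89 to 19.1), a difference that 3.49% of genes reached. At 1000 UMIs per cell the shares were 12.6% (7.38 to 19.7) and 2.04% (0.753 to 4.39). There were 110 Klrd1 UMIs for each Klre1 UMI in naive CD8 T cells (30.1 to 914), from 2 Klre1 UMIs, whereas NK cells had 0.932 (0.871 to 0.997).

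Antigen-experienced CD8 T cells, those with at least 2 UMIs of S100a4 or Ccl5, carried the family more broadly. The name stands for this gate, in CD8 and CD4 T cells alike, and contact with antigen was not tested. Of the 8 members with at least 10 UMIs, 7 were at least 2-fold higher than in naive CD8 T cells, against 9.43% of genes. The exception was Klrd1, at 358 CPM (328 to 391) and 1.62-fold (1.38 to 1.91) the naive level. With cells thinned to 1000 UMIs its log2 ratio was 1.44, past 2-fold, so that all 5 members with enough UMIs at that depth were higher. Klrk1 was at 182 CPM (161 to 206) against 2.01, Klrc2 at 103 against 1 UMI in all, Klre1 at 103 against 2.01 and Klrc1 at 81.2 against 2.01, with naive counts of 1 or 2 UMIs that leave the ratios wide (90.9-fold for Klrk1, 24.9 to 755). The members counted as higher all had 1 or 2 naive UMIs, so they reached the minimum through the antigen-experienced cells. Their count follows largely from that minimum and is no added support, which holds for the recounts too. Klrg1 was at 42.0 CPM (32.0 to 54.2), in 22 of 148 cells. Klrb1c was low at 18.5 CPM and 13 of its 26 UMIs came from 1 cell; without the 3 cells with an Ncr1 UMI it had 8 UMIs, under the minimum, which left 6 of 7 members higher, against 9.28% of genes. Klrb1b had no UMI, which allows up to 2.14 CPM.

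Within antigen-experienced CD8 T cells Klrk1, Klrc1, Klrc2 and Klre1 were often detected in the same cells. Of 47 cells with a Klrk1 UMI, 74.5% (59.7 to 86.1) had Klrc2, 61.7% (46.4 to 75.5) had Klrc1 and 42.6% (28.3 to 57.8) had Klre1. Of the 101 cells without Klrk1, 20.8% (13.4 to 30.0), 16.8% (10.1 to 25.6) and 13.9% (7.79 to 22.2) had them. Klrd1 was found in 83.0% (69.2 to 92.4) of cells with and 83.2% (74.4 to 89.9) of cells without Klrk1, at 483 and 307 CPM. By Klrc2 it differed more, at 94.6% (85.1 to 98.9) of the 56 cells with and 76.1% (66.1 to 84.4) of the 92 cells without Klrc2, and 490 and 283 CPM. The median total was 7712 UMIs in cells with and 9550 in cells without Klrk1, and 9199 and 8998 by Klrc2; the part of depth in these shares was not tested. Of 46 Klrc1-positive cells, 82.6% (68.6 to 92.2) also had Klrc2, against 17.6% of cells without Klrc1, though the shared 3′ sequence of this pair applies here.

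Antigen-experienced CD4 T cells had lower levels, which rested on few cells. All 7 members with at least 10 UMIs were at least 2-fold higher than in naive CD4 T cells, against 10.7% of genes, with Klrk1 at 96.4 CPM (71.0 to 128) and Klrd1 at 80.3 CPM (57.4 to 109), but only 19 of 71 cells had a member UMI. Apart from Klrd1, with 33, these members had 1 to 4 naive UMIs, so they reached the minimum through the antigen-experienced cells. The count follows largely from that minimum and is no added support. The 3 cells with an Ncr1 UMI held 108 of the 207 member UMIs. Without them Klre1 dropped from 27 UMIs to 1, and 6 of 6 members with enough UMIs were higher, against 10.8% of genes, with Klrk1 at 59.4 CPM and Klrb1c at 17.6 CPM. The same limit applies to this recount. Between antigen-experienced CD8 and CD4 T cells, 4 of 8 members were at least 2-fold higher in CD8, against 5.48% of genes, the farthest Klrd1 (4.46-fold, 3.23 to 6.32). The 1 lower member, against 7.99% of genes, was Klrb1c (0.288-fold, 0.165 to 0.499), and 42 of the 58 Klrb1c UMIs of both groups lay in cells with an Ncr1 UMI. Without the Ncr1 cells of both groups, 6 of 8 were at least 2-fold higher in CD8, against 5.78% of genes. Klrk1 was at 2.89-fold (1.94 to 4.49) and Klre1, with 1 UMI left in CD4, at 43.4-fold (7.65 to 1726). Klrg1, with 4 UMIs left in CD4, and Klre1 reached the minimum through the CD8 cells. So did Klrg1, with 7, before the Ncr1 cells were left out. Their part of these 2 counts is therefore no added support. Klrb1c was again the 1 member counted as lower, against 8.74% of genes. Its ratio came from 8 UMIs in each group, and the interval included 1 (0.331-fold, 0.108 to 1.01).

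Gamma delta T cells, gated on Trdc, had all 9 members. Klrc2 was at 260 CPM (193 to 342), Klrd1 at 214 CPM (154 to 289), Klrk1 at 168 CPM (116 to 236) and Klrc1 at 163 CPM (111 to 230), and 22 of the 29 cells had a member UMI. Klrc1 (2.01-fold, 1.31 to 2.99), Klrc2 (2.53-fold, 1.80 to 3.51) and Klrb1c (4.95-fold, 2.56 to 9.38) were at least 2-fold higher than in antigen-experienced CD8 T cells, that is 3 of 8 members, against 10.6% of genes, and Klrd1 was lower (0.597-fold, 0.425 to 0.819). 1 cell with an Ncr1 UMI held 62 of the 216 member UMIs; without it Klrc1 was at 140 CPM and Klrc2 at 253 CPM, and the summed level was 830 CPM, against 1100 CPM with it. With Ncr1 cells left out of both groups, 2 of 8 members were at least 2-fold higher, against 11.2% of genes: Klrc2 (2.52-fold, 1.77 to 3.53) and Klrb1c (10.2-fold, 3.73 to 29.1), while Klrc1 was at 1.72-fold (1.08 to 2.65). The Klrb1c ratio came from 11 against 8 UMIs, so it reached the minimum through the gamma delta T cells. It rested on few cells. Of all 29 gamma delta T cells, 25 had no Klrb1c UMI, and the top 3 held 17 of the 18. Klrd1 (0.420-fold, 0.276 to 0.615) and Klrg1 (2 UMIs, 0.251-fold, 0.0297 to 0.947) were then at least 2-fold lower, against 7.91% of genes. Klrg1 reached the minimum through the CD8 T cells. The 160 T cells with neither Cd4 nor Cd8 UMIs had 732 CPM of summed members, of which 11 cells with an Ncr1 UMI held 427 of 723 UMIs.

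In Foxp3-positive (regulatory) T cells Klrg1 was the most abundant member. Klrg1 was at 143 CPM (98.2 to 200), from 33 UMIs in 8 of 36 cells; the 8 cells had 10, 10, 3, 2, 2, 2, 2 and 2 UMIs, and without the top cell the level was 104 CPM. Klrc1, Klrc2, Klrk1, Klre1, Klrb1b and Klrb1f had no UMI in these cells, which allows up to 13.0 CPM each, Klrd1 had 1 and Klrb1c 3 (13.0 CPM, 0.996 times the level of Foxp3-negative CD4 T cells). Klrg1 was 54.8-fold higher (24.8 to 137) than in Foxp3-negative CD4 T cells, where it had 8 UMIs in 459 cells. It was the one member of the 8 with enough UMIs to be at least 2-fold higher, against 12.1% of genes. With 8 UMIs in the Foxp3-negative cells, it reached the minimum through the Foxp3-positive cells. The count of 1 of 8 is near the share over all genes and is no added support. Klrd1 was counted as lower from a single UMI, where 6.42% of genes were at least 2-fold lower, but the interval of its ratio included 1 (0.179-fold, 0.00448 to 1.03). Of listed genes, the 8 Klrg1-positive cells had 57 UMIs of Gzmb, which encodes granzyme B (843 CPM, 639 to 1092), against 15 in the 28 Klrg1-negative cells (91.6 CPM, 51.3 to 151). They had 0 UMIs of Tcf7 against 51 (311 CPM, 232 to 409), and 8 of Prdm1, a transcription factor of effector cells, against 2. Foxp3 itself was at 444 CPM (299 to 634) and 409 CPM (317 to 520). This division of 36 cells was made after the Klrg1 values were seen.

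**Figure D4:**
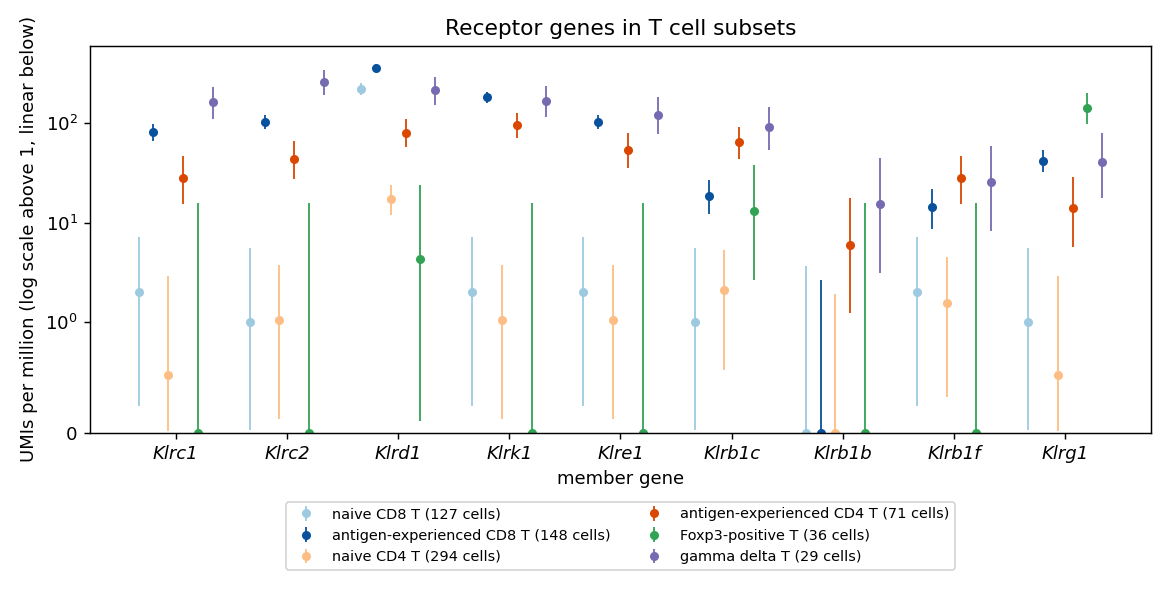
Level of each member (y axis, CPM, log scale above 1 and linear below; bars are exact 95% Poisson intervals) in 6 T cell groups. Klrd1 is high in naive CD8 T cells at 221 CPM, and Klrg1 in Foxp3-positive T cells at 143 CPM.

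Dendritic cells had Klrd1, Klrk1 and a low level of Klrb1f, with the rest of the family at or near 0. In 98 conventional dendritic cells Klrd1 was at 150 CPM (121 to 184), with UMIs in 23 cells; 2 of these cells held 21 and 20 of the 92 UMIs, and without the top cell the level was 119 CPM. Klrk1 was at 62.0 CPM (43.9 to 85.1), in 20 cells with at most 5 UMIs each. Klrb1f was at 22.8 CPM (12.5 to 38.3), whereas Klrc1 and Klrb1b had 0 UMIs and Klrc2, Klrb1c and Klrg1 1 each. Against monocytes, Klrd1 was 39.3-fold (14.9 to 147) and Klrk1 13.0-fold (5.11 to 42.3) higher, that is 2 of the 3 members with enough UMIs, against 7.95% of genes. Klrd1 had 4 and Klrk1 5 UMIs in monocytes, so both reached the minimum through the dendritic cells. Their count is therefore no added support. In 19 plasmacytoid dendritic cells Klrd1 was at 246 CPM (185 to 320), in 12 cells with 1 to 12 UMIs, and Klrk1 had 7 UMIs, of which 1 cell held 6. There were 30.7 Klrd1 UMIs per Klre1 UMI (10.2 to 151) in conventional and 27.5 (7.26 to 233) in plasmacytoid dendritic cells, against 0.932 in NK cells. Cells with no Nkg7 UMI kept these levels (Klrd1 at 151 CPM in 94 conventional and 309 CPM in 15 plasmacytoid dendritic cells).

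Dendritic subsets differed. The 37 conventional dendritic cells without a UMI of Xcr1 or Clec9a, genes of cross-presenting dendritic cells, had 208 CPM of Klrd1 and 14 Klrb1f UMIs; the 61 with such a UMI had 95.4 CPM of Klrd1 (0.460-fold, 0.287 to 0.722) and 0 Klrb1f UMIs. Klrd1 and Klrb1f were 2 of 3 members at least 2-fold lower in the latter, a difference that 22.7% of genes showed in the same direction, and these cells had fewer UMIs in total (median 3456 against 7735). Klrb1f, at 0 UMIs in the latter, reached the minimum through the other group, so its part of the count is no added support. Klrk1 was at 66.8 CPM in cells with and 56.9 CPM in cells without Xcr1 or Clec9a, and the interval of the ratio included 1 (1.17, 0.589 to 2.37). The macrophage gate takes precedence over the dendritic one, and 6 of its 349 cells also had Cd209a, a dendritic cell gene. Those 6 held 28 of the 35 Klrd1 UMIs (366 CPM, 243 to 529) and 13 of the 30 Klrk1 UMIs, and the other 343 had 13.5 CPM of Klrd1 (5.43 to 27.8) and 32.8 CPM of Klrk1 (19.1 to 52.5). Monocytes had Klrb1f at 20.03 CPM (12.4 to 30.6), from 21 UMIs in 9 of 107 cells, with every other member at 4.77 CPM or less. The division by Cd209a, that by Xcr1 or Clec9a and the groups without Nkg7 or Ncr1 were added after values had been seen.

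**Figure D5:**
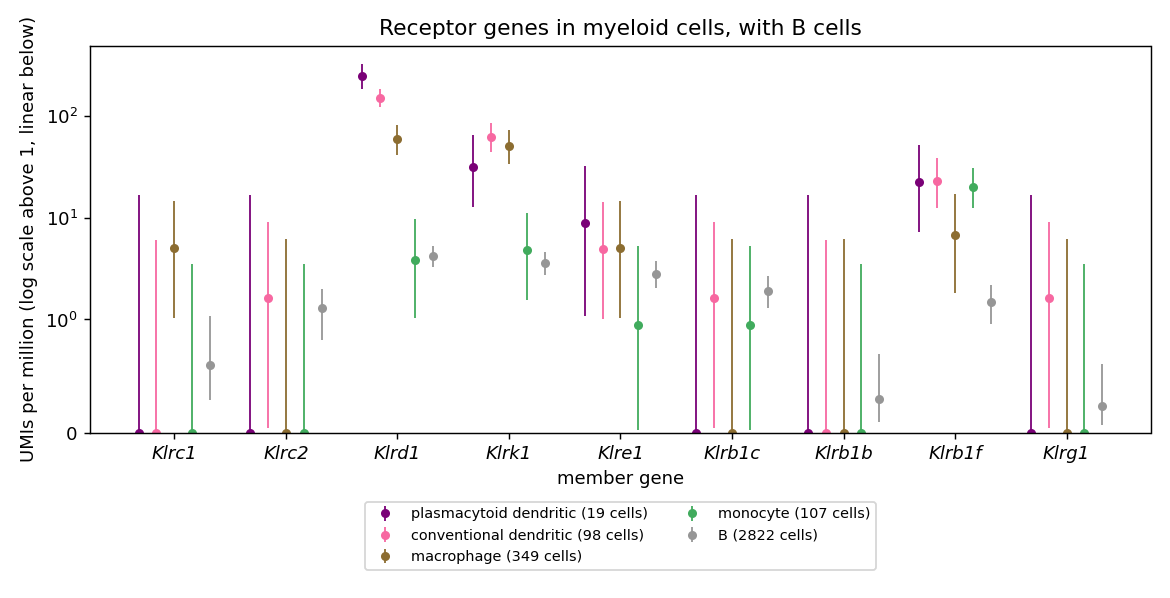
Level of each member (y axis, CPM, log scale above 1 and linear below; bars are exact 95% Poisson intervals) in 4 myeloid groups and B cells. Klrd1 stands at 246 CPM in plasmacytoid and 150 CPM in conventional dendritic cells, and Klrb1f at 20.03 CPM in monocytes.

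B cells, erythroid cells and neutrophils gave the lowest levels. Every member was at 4.16 CPM or less in 2822 B cells, 1.23 CPM or less in 367 erythroid cells and 3.61 CPM or less in 155 neutrophils. In the 2728 B cells with no Nkg7 UMI, the summed level fell from 16.3 to 8.92 CPM. Platelets had no member UMI, which in their 23 barcodes allows up to 57.3 CPM.

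Adaptor genes of the activating receptors differed in how far they set NK cells apart from T cells. Tyrobp (DAP12) was at 3307 CPM in NK cells against 72.9 CPM in T cells, and Fcer1g at 2615 against 62.1 CPM. Hcst (DAP10), the NKG2D adaptor, was present in both at 573 and 416 CPM (1.38-fold, 1.27 to 1.49), and at 622 CPM in antigen-experienced CD8 T cells. Of the 14 adaptor and signalling genes, 5 were at least 2-fold higher in NK cells than in T cells (Tyrobp, Fcer1g, Syk, Plcg2 and Inpp5d) and none lower, with a median log2 ratio of 0.47. Over all genes the median was 0.19, with 13.3% at least 2-fold higher and 9.19% lower. Conventional and plasmacytoid dendritic cells had Tyrobp at 1396 and 3294 CPM but Hcst at 39.1 and 58.2 CPM, near the 43.7 CPM of B cells. Of the 20 listed ligand genes 16 were in the table, and 6 had at least 10 UMIs over NK and T cells. H2-T23, which encodes Qa-1, was widespread, from 342 CPM in NK cells and 345 CPM in B cells to 747 CPM in plasmacytoid dendritic cells, with 32.7 CPM in erythroid cells. Clec2d, the ligand of Klrb1b, was at 187 CPM in B cells, and Clec2i, a ligand of the NKR-P1 family, at 121 CPM. Of the NKG2D ligands, Ulbp1 was at 25.9 CPM in NK cells and 6.38 CPM in B cells, and Raet1e had no UMI in either. Cdh1, the E-cadherin ligand of KLRG1, was at 62.6 CPM in plasmacytoid dendritic cells and at 0 in NK and B cells.

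Of the 8 other lectin-like receptor genes in the table, 5 were at least 2-fold higher in NK than in T cells and 1, Cd69, was lower (0.317-fold), with a median log2 ratio of 4.32; 13.3% of all genes were higher and 9.19% lower. Klri2 (316 CPM) and Klrb1a (211 CPM) were the most abundant of these in NK cells. Of 14 regulators of NK and effector T cells, 8 were at least 2-fold higher and 5 lower in NK cells, against the same 13.3% and 9.19% of genes, with a median log2 ratio of 1.25. Zeb2 (818 against 37.6 CPM), Tbx21 (193 against 21.1 CPM) and Eomes, a gate gene, were higher, and Tcf7 (70.7 against 484 CPM) and Bcl11b (17.5 against 477 CPM), factors of the T lineage, were lower.

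Likeness between genes was described by Pearson's r of log2(CPM + 1) over 21 gated groups, which share 1 library and differ in depth, among 10080 genes with at least 100 UMIs. Klrc1 and Klrc2 were the closest pair of members (0.96) and Klrd1 and Klrg1 the least alike (0.47). The gene most like Klrc1 was the Ly49 receptor gene Klra7 (0.94), followed by Xcl1, a chemokine of NK and CD8 T cells, and Arl4d; Xcl1 was the most like Klrc2 (0.94), followed by Klra7 and Samd3. Klre1 had Klra7 (0.94), Gzma and Klra8. Klrk1 had Pdgfb (0.90), Ncald and Klrb1a, and Klrd1, the member with the broadest range, had Adgrg5 (0.87), Cd7 and Serpinb9. Klrb1c had Ifng, the interferon gamma gene (0.94), Klrb1a and Klra7; Klrb1b had Khdc1a (0.93), Klrb1a and Klra1; and Klrb1f had Il12rb2 (0.91), Pdgfb and Klri2. Klrg1 had Camk2n1 (0.91), Gzmb and Tbx21. Among the 10 genes most like the sum of the members were Serpinb9 (0.91), Padi2, Ptpn4, Plekha5, Cd7, Baiap2, Dusp5 and Ahnak.

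Promoter windows were available for 7 of the 9 members and not for Klrd1 and Klrg1. They are from RefSeq (GRCm38.p6) and span 300 bases, and were searched on both strands for the T-box half-site GGTGTGA (reverse strand TCACACC), the kind of site bound by Tbx21 and Eomes, and for the RUNX motif TGTGGTT (reverse strand AACCACA). The T-box letters were in 0 of 7 members and in 3.98% of all 32851 windows. The RUNX letters were in Klrk1 and Klre1, 2 of 7, and in 5.27% of all windows. The member counts are per gene, some with 2 windows, and the shares are per window, so they are not on the same scale. A match describes letters and not a bound site. The 250 bases upstream of the RefSeq start are shown for Klrk1 and Klre1, with the motif in capitals, and for Klrc1 and Klrc2, the pair with the highest likeness across groups, which had neither motif. Each reads 5′ to 3′ on the strand of its gene. The capitals begin 129 bases before the RefSeq start in Klrk1 (chr6:129623865-129624114, minus strand) and 229 bases before it in Klre1 (chr6:129577963-129578212, plus strand). A second RefSeq start of Klre1 gives a window without the motif. The GENCODE gene of Klre1 begins at 129577905, so this window and its motif lie inside that gene and not upstream of it. Klrc1 is chr6:129678974-129679223 and Klrc2 chr6:129660597-129660846, both on the minus strand. The Klrc2 window overlaps its GENCODE gene, which reaches to 129660689. For Klrk1 and Klrc1 the 2 annotations have the same start.
Klrk1: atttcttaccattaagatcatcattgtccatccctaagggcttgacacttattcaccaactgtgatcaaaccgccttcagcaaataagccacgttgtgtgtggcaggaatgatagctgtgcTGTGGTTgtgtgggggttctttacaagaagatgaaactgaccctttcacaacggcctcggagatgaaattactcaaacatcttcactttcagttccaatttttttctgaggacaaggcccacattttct
Klre1: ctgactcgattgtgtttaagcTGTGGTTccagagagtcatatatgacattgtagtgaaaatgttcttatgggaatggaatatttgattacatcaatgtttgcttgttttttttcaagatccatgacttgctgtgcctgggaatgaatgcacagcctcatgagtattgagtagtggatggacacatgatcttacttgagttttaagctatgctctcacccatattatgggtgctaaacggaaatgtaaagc
Klrc1: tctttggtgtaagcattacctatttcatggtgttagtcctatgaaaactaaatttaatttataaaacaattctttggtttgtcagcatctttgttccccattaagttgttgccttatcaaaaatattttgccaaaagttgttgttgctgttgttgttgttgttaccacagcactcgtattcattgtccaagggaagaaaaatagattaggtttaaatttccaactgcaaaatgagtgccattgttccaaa
Klrc2: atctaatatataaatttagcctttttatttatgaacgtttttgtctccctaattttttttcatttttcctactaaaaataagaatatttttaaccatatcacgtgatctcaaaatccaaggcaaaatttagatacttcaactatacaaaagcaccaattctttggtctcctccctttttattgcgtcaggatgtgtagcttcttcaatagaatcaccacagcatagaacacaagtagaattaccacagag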

How the data were processed

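Spleen cells of 2 mice were sequenced as 3′ UMI libraries on droplets, per the labels' protocols, and the deposited table holds raw UMI counts of 31017 gene symbols in 7524 barcodes. Per the labels the genome build was mm10; which programs mapped and counted the reads is not given in the sources used here. No per-sample column was left unused, and barcodes carry no sample.

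Barcodes with at least 200 genes and at most 10% mitochondrial UMIs were kept. Lineages were gated on fixed minimum sums of raw marker UMIs, between 2 and 6 for most lineages, and a barcode in gates of more than 1 lineage was set aside as a possible doublet. This step could not remove a T and an NK cell in one droplet. The NK gate allows no Cd3 UMI, so such a barcode with at least 2 Cd3 UMIs meets the T gate only. Counts were summed per group. Ratios have exact conditional binomial 95% intervals, and a count of 0 was taken to allow 3 counts. A gene counts as higher or lower at 2-fold or more with at least 10 UMIs over both groups. This minimum is on the sum, so a gene can reach it through the group where it is higher. No model was fitted, since there are no replicates. The ratio step was tested on simulated sums. Sequences and coordinates came from RefSeq and GENCODE on GRCm38. Python 3.11.15, numpy 2.4.6, scipy 1.17.1 and scanpy 1.11.5 (Scrublet) were used.

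All 9 members are described, with the 3 genes most like each, the 10 most like their sum, of which 2 are not reported here, and genes of fixed lists. The members and lists were chosen with earlier results of these data known.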

Additional observations from a re-analysis of the deposited data

Results flagged for a closer look

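Member UMIs were also found in barcodes that no comparison used, above what a count of 0 allows there. The 936 barcodes removed by the filters held 229, in 75 barcodes (107 CPM summed, where 0 would allow 1.41). The 579 barcodes in more than 1 gate held 2044, in 174 barcodes (240 CPM), and 42 of these met the NK gate and held 1312. The 723 barcodes in no gate held 915, in 58 barcodes (757 CPM), of which 25 barcodes met the NK gate but for 1 Cd3 UMI and held 808.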

How the results depend on the processing

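The count of members at least 2-fold higher in NK than in T cells was 9 under every alternative run, and that for antigen-experienced over naive CD8 T cells was 5 to 7. For CD4 T cells it was 7, and 8 with no filter on low counts, 6 without T cells that had an Ncr1 UMI and 1 with cells thinned to 1000 UMIs, where fewer members reached 10 UMIs. Between the NK stages it was 1, and 2 with a mitochondrial maximum of 5%, 3 with thinned cells, Klrg1 not among them, and 0 with 1 Cd3 UMI allowed in the NK gate. Removing the 137 doublets that Scrublet called (2.08% of kept barcodes) left all 4 counts as they were. It took the antigen-experienced CD4 T cells from 71 to 68 and lowered all 7 of their log2 ratios over naive cells. The largest falls were for Klre1 (5.70 to 4.39) and Klrb1c (4.95 to 4.15), and each stayed inside its main interval. Of 307 ratios of single members under the alternatives, 267 stayed inside the main interval, 40 moved outside it and none of those at least 2-fold apart changed sign. Median-of-ratios scaling lowered all NK over T ratios (Klrd1 from a log2 ratio of 3.09 to 2.84). Leaving out T cells with an Ncr1 UMI was chosen after seeing the data. No paired analysis was possible because the deposited barcodes cannot be assigned to the 2 samples. The 19 plasmacytoid dendritic, 29 gamma delta T and 36 Foxp3-positive T cells are few, and single cells hold a large share of their UMIs.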
